A study of Mus musculus with 12 samples.

Results

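The miR-30 family was followed in ileum libraries of male NOD mice, which develop autoimmune diabetes spontaneously, through the 5 probes named mmu-miR-30a, mmu-miR-30b, mmu-miR-30c, mmu-miR-30d and mmu-miR-30e. The members were chosen by name, as 1 seed family encoded in 3 genomic clusters, and make up 5 of 599 probes in the table and 5 of 226 mouse probes that were tested. All 5 passed the filter on low values. MicroRNAs (miRNAs) were counted with the NanoString nCounter mouse panel, which joins a sequence tag to each mature miRNA and counts coloured reporters hybridised to it, with no amplification step. The series compared 3 groups of 4 male NOD mice at postnatal day 23. One group is labelled cecal material transfer (restoration in the labels' treatment text), one 1PAT antibiotics and one control, and they are called cecal transfer, antibiotic and control here. The labels do not say whether the cecal transfer mice had received the antibiotic before the transfer. Dams were assigned to a group together with their litters, and the dam behind a library is not stated, so the p-values below rest on the spread among libraries, some of which may be littermates. The tissue label is ileum, whereas the design text speaks of intestinal epithelial cells.

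A miRNA guides an Argonaute protein to mRNAs that pair with its seed, so that miRNAs sharing a seed can share targets. The miR-30 family is broadly expressed in epithelia. In human intestinal epithelial cell models it has been linked to the balance between proliferation and differentiation, with the progenitor factor SOX9 among its targets, and in mouse hepatocytes to repression of Snai1, a driver of the loss of epithelial character. Each member is processed from a hairpin, and its neighbours in a cluster lie close on the same chromosome.

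The mature sequences show what the members share and where a probe can separate them. They are RefSeq sequences of build GRCm38.p6, found for 3 of the 5 members, with the seed (bases 2 to 8) in capitals. The deposited probe names give no arm, and the sequences are those of the 5p arms, which carry the family seed.
miR-30a-5p: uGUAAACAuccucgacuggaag
miR-30e-5p: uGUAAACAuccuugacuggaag
miR-30c-5p: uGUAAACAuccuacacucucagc
miR-384-5p: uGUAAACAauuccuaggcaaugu
miR-30a-5p lies at chr1:23272274-23272295 on the plus strand and miR-30e-5p at chr4:120772660-120772681 on the minus strand. Counting from 1 at the 5′ end, the pair differed by a single substitution, C13U, from miR-30a-5p to miR-30e-5p. From miR-30a-5p to miR-30c-5p there were 5 substitutions over the 22 positions compared (C13A, G14C, G18C, G19U and A20C). The sequences of miR-30b and miR-30d are not shown here. The only other mature sequence of the RefSeq table with this seed was miR-384-5p, encoded on chromosome X (chrX:105344332-105344354, minus strand).

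miR-30c is encoded at 2 loci. The hairpins are shown, with the mature miRNA in capitals, because the result for miR-30c cannot be assigned to either of them.
Mir30c-2: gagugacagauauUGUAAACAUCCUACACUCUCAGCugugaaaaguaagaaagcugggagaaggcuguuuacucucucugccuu
Mir30c-1: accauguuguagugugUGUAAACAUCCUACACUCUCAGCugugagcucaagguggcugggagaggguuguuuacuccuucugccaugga
Mir30c-2 (chr1:23291701-23291784, plus strand) is the neighbour of Mir30a on chromosome 1. Mir30c-1 (chr4:120769534-120769622, minus strand) is the neighbour of Mir30e on chromosome 4, and both lie within the span of Nfyc, which encodes a subunit of the transcription factor NF-Y and is annotated on the same strand. The annotation used gives no exons, so their place in exon or intron is not stated. Mir30b and Mir30d are neighbours on chromosome 15. Both hairpins give the same mature miR-30c-5p of 23 bases, so the single miR-30c probe reports their sum.

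The deposited values are normalised signal, and every value in a library was a whole multiple of 1 step, taken as the worth of a single count. Recovered total counts ranged from 280114 to 393551 in cecal transfer, from 120235 to 148297 in antibiotic and from 169844 to 274302 in control libraries, so depth differed between the groups without overlap. Among the libraries, antibiotic replicate 3 and cecal transfer replicate 1 stood apart at the low end of the scale, with 55 and 39 mouse probes at a single count, against 3 to 24 in the other 10. Epithelial markers were well above background: the 8 measured of 9 names on a list of epithelial markers, miR-192, miR-194, miR-375 and the miR-200 family, exceeded a signal of 32 in all 12 libraries. Markers of smooth muscle and fibroblasts were present as well, miR-145 having a mean signal of 24186 over all libraries. In bulk samples a smaller share of a cell type and less RNA per cell cannot be told apart.

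Within the family, miR-30c alone passed the threshold, and it did so in both comparisons that involve cecal transfer. It was 1.37-fold higher in cecal transfer than in control libraries and 1.42-fold higher than in antibiotic libraries. The other 4 members did not pass in any of the 3 comparisons. In each comparison with cecal transfer 1 of 5 members thus passed. Among all 226 tested probes the share that passed was 30.1% against control and 32.7% against antibiotic. Without a depth covariate, the 95% intervals of all differences of miR-30a, miR-30b and miR-30d extended at most 0.38 from 0 (log2 scale). Those of miR-30e extended at least 0.70 from 0 on both sides.

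**Figure D1:**
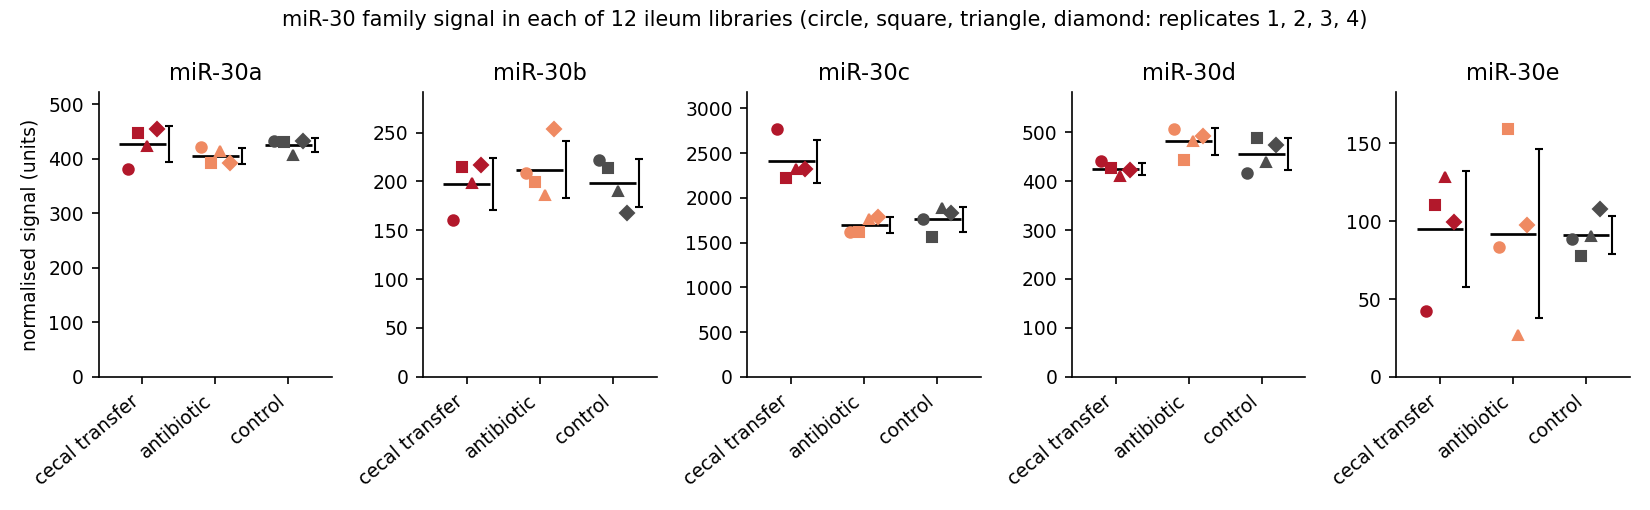
Normalised signal (units, linear axes from 0) of the 5 miR-30 probes in the 4 cecal transfer, 4 antibiotic and 4 control libraries, one symbol per replicate, with group means (bars) and SD (error bars). The 4 cecal transfer libraries sit between 2228 and 2769 for miR-30c, above all other libraries, while the groups overlap for miR-30a, miR-30b and miR-30e, and miR-30e is lowest in antibiotic replicate 3 and cecal transfer replicate 1.

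The first comparison was that of cecal transfer with control, and asked what differs in mice given cecal material. Differences were tested with limma on log2(signal + 1) over all 226 tested probes, with Benjamini-Hochberg adjusted p-values and a threshold of 0.05. Fold changes on this scale understate those of weak probes. Of the 226 probes 68 passed, which is 30.1%, with 41 (18.1%) higher and 27 (11.9%) lower in cecal transfer, and the split was 28 and 28 with median centring, 26 and 27 with quantile normalisation and 38 and 14 with TMM factors. In the miR-30 family 1 of 5 members passed. Its groups did not overlap, as was the case for 29.6% of all tested probes. The median log2 difference was −0.01 over the 5 members and 0.05 over all tested probes.

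Cluster partners on chromosomes 1 and 4 were read first, since miR-30c belongs to both clusters. miR-30c had a signal of 2769, 2228, 2319 and 2323 in the 4 cecal transfer libraries, 1614, 1619, 1769 and 1789 in the antibiotic libraries, and 1765, 1563, 1884 and 1830 in the control libraries. Every cecal transfer library lay above every library of the other groups, and antibiotic and control libraries overlapped. Group means were 2410 ± 243 in cecal transfer, 1698 ± 94.1 in antibiotic and 1761 ± 140 in control libraries (SD, n = 4 each).

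Against control, the log2 difference of miR-30c was 0.45 (SE 0.08, 95% interval 0.27 to 0.63, limma adjusted p = 0.00101). It ranked 19th of 226 by p in this comparison. The recovered counts behind these values ranged from 920 to 3937. For cecal transfer replicate 1, the highest, the exact Poisson 95% interval of the signal was 2678 to 2862. For antibiotic replicate 3, which had the fewest counts, it was 1657 to 1887 and ended below every cecal transfer value. Such intervals cover counting error only.

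Depth and other cell types moved with this result. The control library of greatest depth (replicate 1, 274302 counts) had a miR-30c signal of 1765, and the cecal transfer library of least depth (replicate 3, 280114 counts) had 2319. With log2 depth as a covariate the difference from control was 0.57 (limma adjusted p = 0.0183). Depth did not overlap between the groups, so its part in the miR-30c result cannot be told apart from that of treatment. Neither the covariate nor single libraries of similar depth separate them. The summed signal of the smooth muscle and fibroblast markers was 38997 to 46958 in cecal transfer, 31969 to 34402 in antibiotic and 28183 to 35486 in control libraries. Of the 4 tested probes of that list, 3 were higher in cecal transfer than in control libraries. Of 3 erythroid markers 2 were higher, with summed signals of 1466 to 1981, 1208 to 1492 and 1128 to 1381 in cecal transfer, antibiotic and control libraries. Of 5 leukocyte probes 2 were higher, with sums of 2029 to 2714, 1781 to 2079 and 1450 to 2644 in the same groups. The leukocyte sums of cecal transfer and control libraries overlapped. miR-499 of 3 tested striated muscle probes and the liver miRNA miR-122 were higher, and miR-126-5p of the 2 endothelial probes was lower. On the list of epithelial markers 5 of 8 tested probes were lower and 0 higher. Of all 226 tested probes 18.1% were higher and 11.9% lower in this comparison. The lowest value of a library was taken as 1 count, so no probe could be at 0. Of the listed markers miR-214, miR-133b, miR-206, miR-216a and miR-217 stayed under the filter, and the single pancreatic probe tested, miR-216b, did not pass. The part of these cell types in the miR-30c result was not tested.

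miR-30a, the partner of Mir30c-2, had 381, 447, 423 and 454 in cecal transfer, 421, 391, 413 and 392 in antibiotic and 432, 432, 406 and 432 in control libraries. The 3 groups overlapped, and the range over all 12 libraries was only 1.19-fold from lowest to highest. Means were 427 ± 32.9, 404 ± 15.01 and 425 ± 12.7 in cecal transfer, antibiotic and control libraries (SD, n = 4 each). The difference between cecal transfer and control was 0.00 on the log2 scale (95% interval −0.16 to 0.16, limma adjusted p = 0.988). A change in miR-30a of the size seen for miR-30c therefore lay outside its interval.

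miR-30e, the partner of Mir30c-1, was the weakest and most variable member. It had 42.0, 111, 128 and 99.7 in cecal transfer, 83.5, 159, 26.9 and 97.6 in antibiotic and 88.7, 77.6, 90.8 and 108 in control libraries. Its groups overlapped throughout, with means of 95.2 ± 37.4, 91.8 ± 54.3 and 91.2 ± 12.4 in cecal transfer, antibiotic and control libraries (SD, n = 4 each).

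The lowest values of miR-30e came from antibiotic replicate 3 and cecal transfer replicate 1, the libraries with most probes at a single count. In the other 10 libraries its signal was 77.6 to 159. The value in antibiotic replicate 3 rested on 14 counts (exact Poisson 95% interval of the signal 14.7 to 45.2), and that in cecal transfer replicate 1 on 53 counts (31.5 to 55.0). Both intervals end below the lowest of the other 10 libraries. miR-30e was 1 of 4 tested probes (1.77%) that were lower in both of these libraries than in every other, together with miR-331-3p, miR-433 and miR-690. The reverse, higher in both than in every other library, held for 2 tested probes (0.885%). Other pairs of libraries were not counted, so whether these shares are unusual was not tested. miR-30a, which differs from miR-30e at a single base, was not lower in both than in every other library, having 413 and 381 in them.

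For cecal transfer against control, the log2 difference of miR-30e was −0.04 (SE 0.43, 95% interval −0.98 to 0.89, limma adjusted p = 0.948). Without cecal transfer replicate 1 it was 0.31 (adjusted p = 0.653). At this spread a change of the size seen for miR-30c was not detectable.

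**Figure D2:**
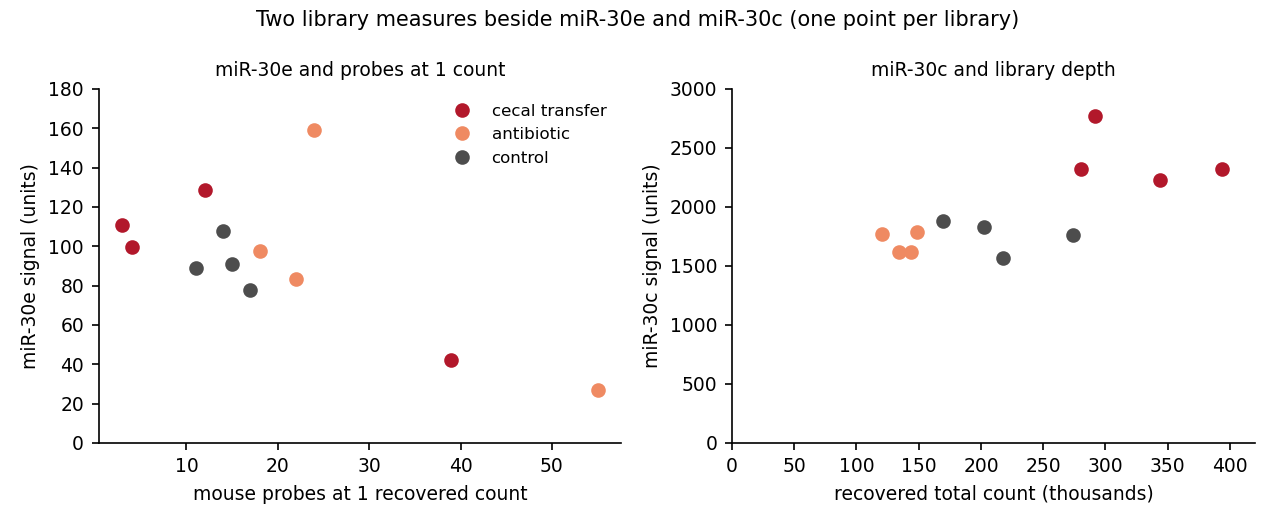
Left, miR-30e signal (units) against the number of mouse probes at 1 recovered count. Right, miR-30c signal against the recovered total count. Each point is 1 library, coloured by group. Depth does not overlap between the groups, so depth and treatment cannot be told apart. The libraries with 39 and 55 probes at a single count have the lowest miR-30e signals, 42.0 and 26.9, and control replicate 1 at 274302 counts has a miR-30c signal of 1765, below the 2319 of cecal transfer replicate 3 at 280114 counts.

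The cluster on chromosome 15 encodes miR-30b and miR-30d. miR-30b had 160, 215, 198 and 217 in cecal transfer, 209, 200, 187 and 253 in antibiotic and 222, 214, 190 and 167 in control libraries. No group stood apart, and the means were 197 ± 26.3, 212 ± 29.0 and 198 ± 24.8 in cecal transfer, antibiotic and control libraries (SD, n = 4 each). Against control, the cecal transfer difference of miR-30b was −0.01 on the log2 scale (95% interval −0.28 to 0.27, limma adjusted p = 0.964).

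miR-30d had 441, 426, 411 and 424 in cecal transfer, 506, 443, 483 and 493 in antibiotic and 416, 489, 440 and 474 in control libraries. Cecal transfer libraries lay below all antibiotic libraries, narrowly so for cecal transfer replicate 1 and antibiotic replicate 2, and overlapped with control libraries. Means were 425 ± 12.2, 481 ± 27.0 and 455 ± 33.1 in cecal transfer, antibiotic and control libraries (SD, n = 4 each). The cecal transfer difference from control was −0.09 (95% interval −0.26 to 0.07, limma adjusted p = 0.423).

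miR-384-5p, the further miRNA with the family seed, was near background. Its signal was 9.51 to 10.8 in cecal transfer, 3.15 to 9.74 in antibiotic and 8.45 to 11.5 in control libraries. The herpesvirus probes of the panel, used here as a measure of background, had a median signal of 5.55 to 12.99 per library. miR-384-5p did not pass the filter and was not tested. No probe of the table was named for another arm of a mir-30 hairpin.

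The next comparison asked what the antibiotic changed. No member of the miR-30 family passed between antibiotic and control libraries, and neither did any of the 226 tested probes (0%). With limma 34 probes had an unadjusted p under 0.05, edgeR called 0 and DESeq2 called 3, none of them a member. The log2 differences between antibiotic and control were −0.07 for miR-30a (95% interval −0.23 to 0.09) and −0.05 for miR-30c (−0.23 to 0.13). They were 0.10 for miR-30b (−0.18 to 0.37) and 0.08 for miR-30d (−0.08 to 0.25). For miR-30e the difference was −0.23 (−1.16 to 0.70), and without antibiotic replicate 3 it was 0.27. The lowest adjusted p among the members was 0.621, that of miR-30d. All 5 members overlapped between the groups, whereas 8.41% of the tested probes did not.

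The last comparison set cecal transfer against antibiotic, the contrast to which the word restoration in the labels points. Of the 226 probes 74 passed, which is 32.7%, with 45 (19.9%) higher and 29 (12.8%) lower in cecal transfer. That split was 22 and 32 with median centring, 23 and 28 with quantile normalisation and 60 and 12 with TMM factors. In the family 1 of 5 members passed, and the groups did not overlap for 2 of 5, against 33.6% of the tested probes. The median log2 difference was 0.07 over the members and 0.04 over all tested probes.

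miR-30c was the member that passed, with a log2 difference of 0.50 (SE 0.08, 95% interval 0.32 to 0.68, limma adjusted p = 0.000629) and rank 9 of 226 by p. With log2 depth as a covariate its difference was 0.75 with adjusted p = 0.234, and 0 of 226 probes passed in that fit, in which 35 had an unadjusted p under 0.05. As this comparison and the one with control share the cecal transfer libraries, the pair of miR-30c differences is not independent. The markers of other cell types again moved alongside, with 3 of 4 smooth muscle and fibroblast probes, 3 of 5 leukocyte probes and 3 of 3 erythroid probes above their antibiotic levels. miR-1, the only called probe of 3 for striated muscle, was 1.60-fold higher, and the liver miRNA miR-122 was higher too (log2 0.45). The endothelial probe miR-126-5p went the other way (log2 −0.37), and the pancreatic miR-216b did not pass. On the list of epithelial markers 4 of 8 tested probes were lower and 0 higher. Of all 226 tested probes 19.9% were higher and 12.8% lower. The part of these cell types in the miR-30c result was not tested here either.

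miR-30d was lower in every cecal transfer library than in every antibiotic library but missed the threshold (log2 −0.18, 95% interval −0.34 to −0.01, limma adjusted p = 0.0931). With edgeR on the recovered counts it passed (log2 −0.21, adjusted p = 0.0479), and it also passed with limma without antibiotic replicate 2 (log2 −0.21, adjusted p = 0.0479). Over all 24 alternatives its log2 difference was −0.26 to −0.04. miR-30a (0.07), miR-30b (−0.10) and miR-30e (0.19) had adjusted p-values of 0.507, 0.589 and 0.779 in this comparison.

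**Figure D3:**
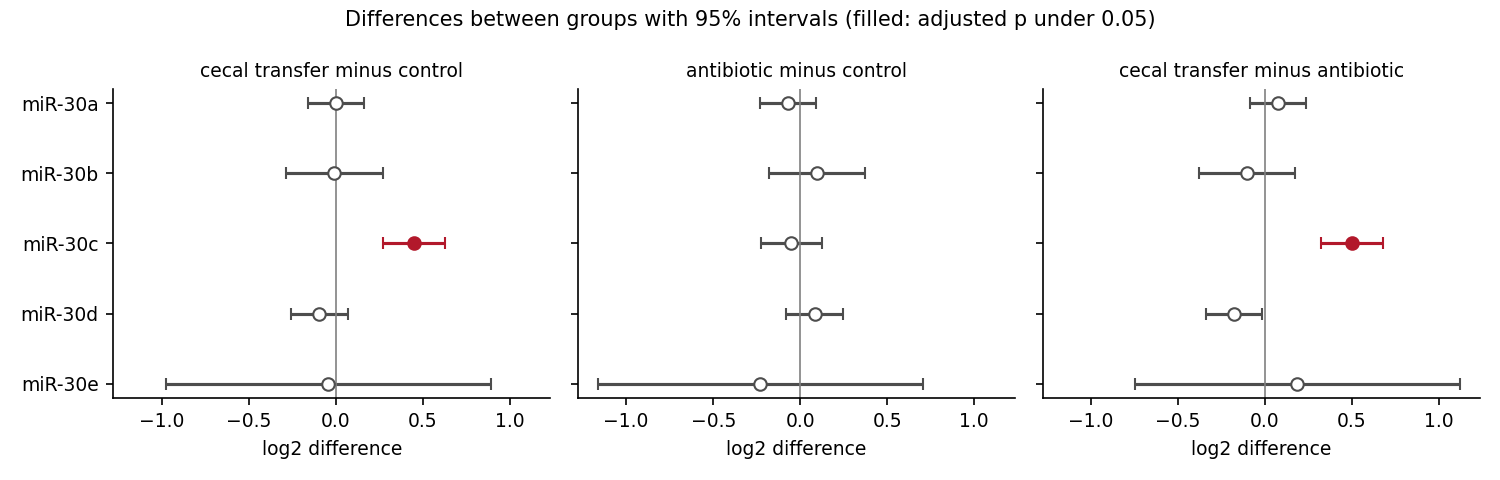
Log2 differences of the 5 members between groups, with 95% intervals from limma, one panel per comparison. miR-30c is the filled symbol, at 0.45 against control and 0.50 against antibiotic, and the interval of miR-30e is the widest in all panels.

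The group means gave an order for each member. For miR-30c it was cecal transfer, control, antibiotic, of which control and antibiotic did not differ beyond their spread. For miR-30d it was antibiotic, control, cecal transfer, with no pair of groups past the threshold in the limma fit of all 12 libraries. No pair of groups passed for miR-30a (cecal transfer, control, antibiotic), miR-30b (antibiotic, control, cecal transfer) or miR-30e (cecal transfer, antibiotic, control). The order of miR-30e depended on the scale. On the log2 scale control was highest, with cecal transfer at −0.04 and antibiotic at −0.23 from it. With means of 2410 in cecal transfer, 1698 in antibiotic and 1761 in control libraries, the cecal transfer mean of miR-30c lay beyond that of control, on the other side from antibiotic.

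**Figure D4:**
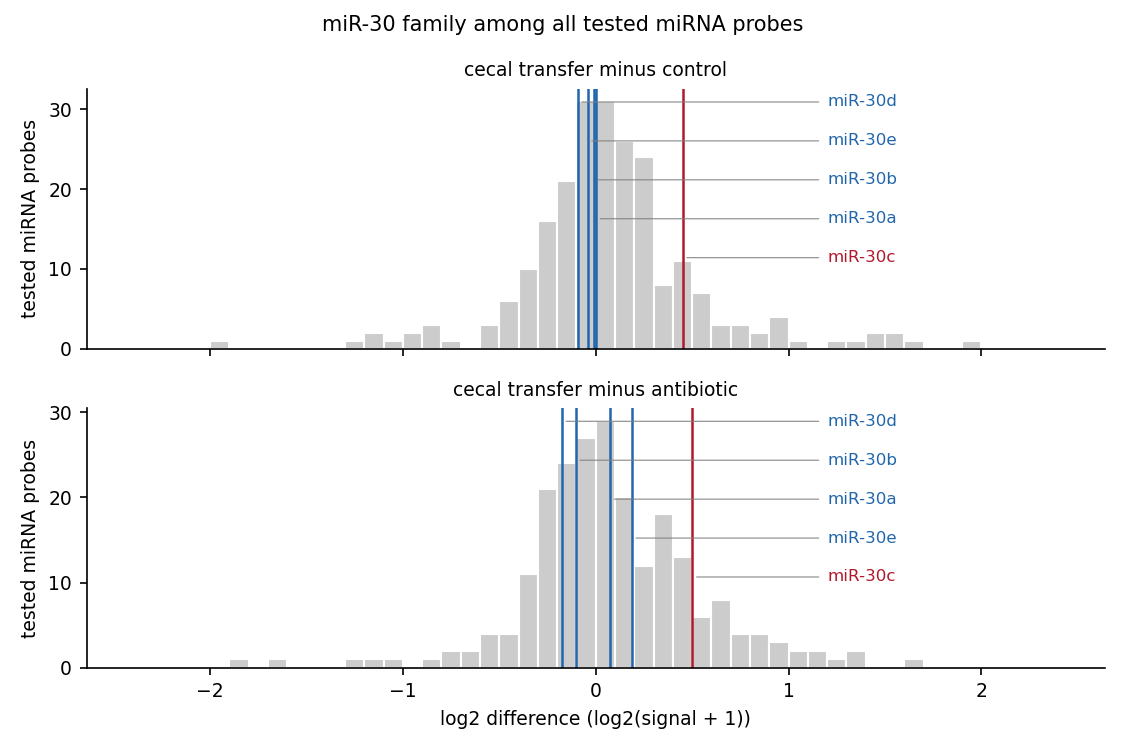
Histograms of the log2 difference of the 226 tested probes for cecal transfer minus control (top) and cecal transfer minus antibiotic (bottom), with vertical lines at the 5 members. miR-30c lies in the upper shoulder at 0.45 and 0.50, and the other members fall between −0.18 and 0.19, within the bulk of the probes.

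Whether cluster partners changed unequally was tested on their ratio within each library, which is free of the scaling of the library. In all, 9 comparisons were made by exact permutation (two-sided), where groups of 4 cannot give a p under 0.0286. The ratio of miR-30a to miR-30c was 0.138, 0.201, 0.183 and 0.196 in cecal transfer, 0.261, 0.242, 0.234 and 0.219 in antibiotic and 0.245, 0.276, 0.216 and 0.236 in control libraries. All cecal transfer libraries lay below all others. The log2 difference was −0.45 against control (SE 0.14, exact p = 0.0286) and −0.43 against antibiotic (SE 0.14, exact p = 0.0286). Both exact permutation p-values were the lowest that groups of 4 can give, and adjusted over the 9 comparisons they became 0.129. With only these at that lowest value the threshold could not be reached. The miss therefore does not decide whether the partners changed unequally. Signals of different probes are not on a common scale, so the ratio can show unequal change but not relative abundance.

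The ratio of miR-30e to miR-30c had geometric means of 0.0366, 0.0453 and 0.0516 in cecal transfer, antibiotic and control libraries, and its groups overlapped. Its log2 difference was −0.50 against control (exact p = 0.257, adjusted p = 0.771) and −0.31 against antibiotic (exact p = 0.571, adjusted p = 0.943). Without cecal transfer replicate 1 these were −0.07 and 0.11. For the partners of chromosome 15, the ratio of miR-30b to miR-30d had geometric means of 0.461, 0.438 and 0.434 in cecal transfer, antibiotic and control libraries, and these groups overlapped too. Its log2 differences were 0.09 (SE 0.17) for cecal transfer against control, 0.01 (SE 0.15) for antibiotic against control and 0.07 (SE 0.15) for cecal transfer against antibiotic (exact p = 0.629, 0.943 and 0.714, adjusted p = 0.943 for each).

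**Figure D5:**
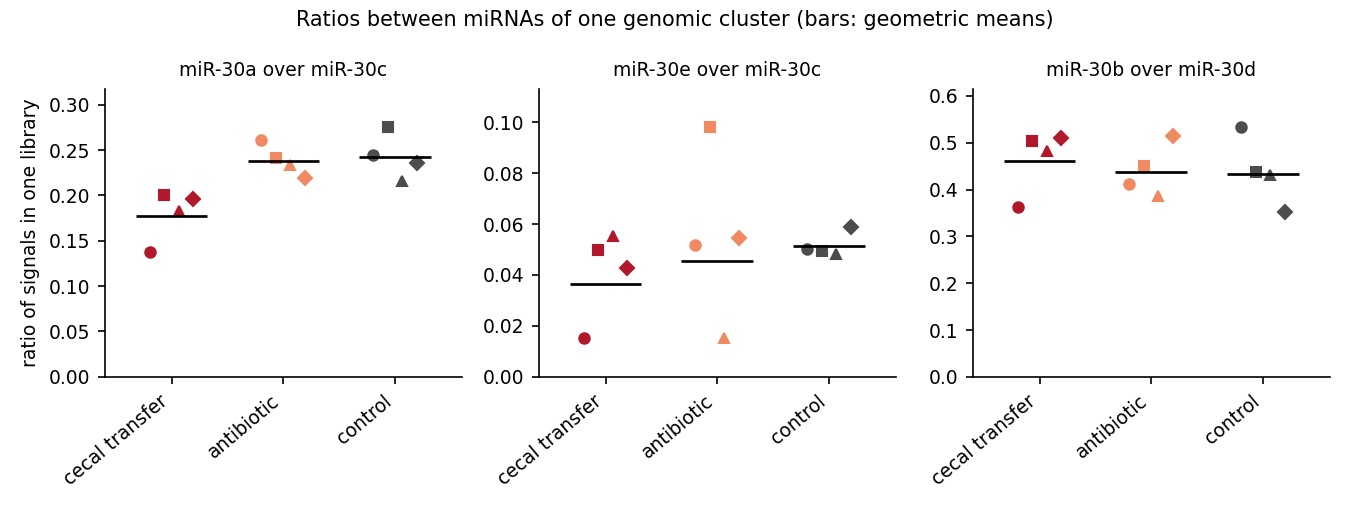
Ratio of the signals of cluster partners in each library, linear axes from 0, with geometric means as bars. The ratio of miR-30a to miR-30c is 0.138 to 0.201 in the 4 cecal transfer libraries, below the 0.216 to 0.276 of all other libraries, while the groups overlap for the other ratios.

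From library to library, correlations between members of a cluster were near or below 0. miR-30a and miR-30c had a Pearson correlation of −0.00 over the 12 libraries and −0.69 once group means were removed. miR-30e and miR-30c had −0.13 and −0.48, and miR-30b and miR-30d had 0.07 and −0.15. Between clusters the highest correlations were those of miR-30b, with 0.25 over the 12 libraries and 0.44 with group means removed for miR-30a, and 0.37 and 0.43 for miR-30e. Some pairs between clusters were below 0 as well. In the same order, miR-30c had −0.61 and −0.01 with miR-30d, and −0.36 and −0.52 with miR-30b. Partners of a cluster thus did not stand apart from other pairs by low correlation. These values are descriptions, in which the points share 1 scaling factor per library. In cecal transfer replicate 1, miR-30c was the highest of its group, at 2769, and miR-30a, miR-30b and miR-30e were the lowest, at 381, 160 and 42.0.

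The probes outside the family most like each member were sought among 221 tested probes by Pearson correlation of log2(signal + 1) over the 12 libraries. For miR-30c these were miR-101b (r = 0.92, Spearman rho = 0.82) and miR-367 (r = 0.92, rho = 0.91). With group means removed the correlations of miR-30c were 0.50 and 0.77. Mean signals of miR-101b were 120, 83.2 and 82.4 and of miR-367 43.5, 14.7 and 17.6 in cecal transfer, antibiotic and control libraries, and miR-367 was under the limit of 32 in the mean of the antibiotic and control groups. For miR-30d the most similar were miR-139-5p (r = 0.84) and miR-490 (r = 0.77). Mean signals of miR-490 were 13.4 in cecal transfer, 42.9 in antibiotic and 26.7 in control libraries, so that its mean exceeded the limit of 32 in the antibiotic group alone. For miR-30e they were miR-1902 (r = 0.85, rho = 0.81), which is close to the background limit, and miR-331-3p (r = 0.80, rho = 0.64). For miR-30b they were miR-690 (r = 0.76) and miR-365 (r = 0.75), and for miR-30a miR-1 (r = 0.60) and miR-1966 (r = 0.59). These are the 2 highest of 221 correlations for each member and carry no p. With miR-30e, miR-331-3p and miR-690 were among the 4 tested probes lowest in both antibiotic replicate 3 and cecal transfer replicate 1. The part of these libraries in the correlations was not tested.

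Several epithelial miRNAs outside the family were lower in cecal transfer. They were counted over a second epithelial list, which leaves out miR-375 of the marker list and adds miR-203 and miR-205. Of its 9 tested probes, 5 were lower and 0 higher in cecal transfer than in control libraries, where 11.9% of all tested probes were lower and 18.1% higher. In cecal transfer 4 were lower and 0 higher than in antibiotic libraries, against 12.8% and 19.9% of all tested probes, and 0 differed between antibiotic and control. The median log2 difference of the list was −0.28 against control and −0.26 against antibiotic, beside 0.05 and 0.04 over all tested probes. The largest changes were those of miR-194, an enterocyte miRNA, with means of 6478 in cecal transfer and 12337 in control libraries (log2 −0.89, limma adjusted p = 0.00183), and miR-141 of the miR-200 family, with 1089 and 1532 (log2 −0.49, adjusted p = 0.000445). miR-200c (−0.31), miR-192 (−0.29) and miR-429 (−0.28) were lower as well. The threshold was missed by the other 4, which were miR-200b (−0.02), miR-200a (−0.03), miR-205 (−0.12) and miR-203 (−0.18). The summed signal of the list was 26031 to 31307 in cecal transfer, 32767 to 37999 in antibiotic and 29862 to 42404 in control libraries.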

How the data were processed

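The deposited table holds normalised signal from the NanoString nCounter mouse miRNA panel version 1.5, per the labels' protocols. For the authors' software and scaling, the sources here name none. The signals of the 100 strongest probes of a library summed to nearly the same value throughout, 220014 to 222565. Dividing each deposited signal by the smallest of its library gave whole numbers (100% within 0.01), taken as recovered counts and depths of 120235 to 393551. Mouse probes above a signal of 32 in at least 4 libraries were tested (226 of 566), as log2(value + 1), with limma 3.58.1 in R 4.3.3 in a single fit of all 12 libraries with a variance trend. The fit was run on simulated data with planted changes, a fixed spread and independent libraries, and the outcome is not given here. Such data hold no shared litters and no effect of depth on the signal, so the run says nothing about either. edgeR 4.0.16 and DESeq2 1.42.0 were run on recovered counts as alternatives. Pairs of replicates differed by more than counting noise (chi-square per degree of freedom 2.96 to 29.8 over 18 pairs). Named miRNAs were the members, same-seed probes, other arms, the 2 most correlated probes per member and up to 4 called members of the epithelial list with the largest change, to which miR-192, the fifth called, and the 4 not called were added after their values were seen. Probes sharing the low values of miR-30e were also chosen after seeing the data. Members and lists were chosen with earlier results of these data known. All libraries carry batch label 1. RefSeq tables (GRCm38.p6) gave sequences and neighbouring genes.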

Additional observations from a re-analysis of the deposited data

Results flagged for a closer look

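Among 24 groups of 4 values checked for a sample far from the others (15 of signal, 9 of log2 ratios), 1 was found. miR-30a in control replicate 3 had a signal of 406, below the other control libraries at 432 each, and the difference is within the counting interval of that value (361 to 456). Chance alone is expected to give about 1 such value in 20 groups.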

How the results depend on the processing

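miR-30c stayed higher in cecal transfer than in control libraries, with adjusted p under the threshold, in all 24 alternatives (log2 0.38 to 0.57, adjusted p 0.000195 to 0.0183). Among these, leaving out a library of the group not compared keeps the log2 difference as it was and moves only the adjusted p. Against antibiotic, with the same limit, miR-30c was higher in 24 of 24 (log2 0.42 to 0.75) and passed in 23. The exception was log2 depth as a covariate, with 0.75 (adjusted p = 0.234), and the cause was not tested. With that covariate 23 probes passed in cecal transfer against control and 0 against antibiotic. TMM factors moved the median of all tested probes by 0.14 on the log2 scale in cecal transfer against antibiotic, and relative to that median miR-30c was higher by 0.46. Without a filter 161 of 566 probes passed in that comparison, 50 higher and 111 lower in cecal transfer, and 70 passed against control, 34 higher and 36 lower. A single count was worth 0.59 to 0.83 units of signal in cecal transfer, 1.57 to 1.92 in antibiotic and 0.85 to 1.40 in control libraries. A probe at 1 count throughout thus has its lowest signal in cecal transfer. Its part in the counts without a filter was not tested. With antibiotic replicate 3 and cecal transfer replicate 1 both left out, an alternative chosen after seeing the data, 36 of 226 probes passed in cecal transfer against antibiotic with fewer libraries. In that fit miR-30c kept log2 0.45 and 0.38 against antibiotic and control. For antibiotic against control the count of 0 became 2 with quantile normalisation, 1 without a variance trend, 3 with DESeq2 and 0 to 8 with a library left out. miR-30d in cecal transfer against antibiotic passed with edgeR (−0.21), and with a library left out was −0.21 to −0.15.

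miR-30a, miR-30b and miR-30e passed in no comparison under any of these alternatives, but the sign of several of their differences turned. For cecal transfer against control, miR-30a was −0.067 with median centring, −0.093 with log2 depth, −0.049 with edgeR and −0.050 with DESeq2. miR-30b was 0.065 with TMM and 0.090 without the pair of libraries. miR-30e was 0.029 with TMM, 0.011 with edgeR, 0.013 with DESeq2 and 0.31 without the pair. For antibiotic against control, miR-30a was 0.027 with log2 depth, and miR-30e was 0.44 with log2 depth, 0.0088 with edgeR, 0.0045 with DESeq2 and 0.27 without the pair. For cecal transfer against antibiotic, miR-30a was −0.012 with median centring and −0.12 with log2 depth, miR-30b was 0.035 with TMM, and miR-30e was −1.12 with log2 depth. With log2 depth miR-30b kept its signs but moved further from 0. It was −0.35 for cecal transfer against control, 0.46 for antibiotic against control and −0.80 for cecal transfer against antibiotic. None of these passed (limma adjusted p = 0.256, 0.319 and 0.290). With a library left out, cecal transfer against control was −0.030 to 0.054 for miR-30a, −0.086 to 0.090 for miR-30b and −0.22 to 0.31 for miR-30e. miR-30e was −0.57 to 0.27 for antibiotic against control and −0.31 to 0.54 for cecal transfer against antibiotic. The log2 ratio differences spanned −0.078 to 0.040 (miR-30a over miR-30c) and −0.56 to 0.34 (miR-30e over miR-30c) for antibiotic against control, and −0.83 to 0.11 (miR-30e over miR-30c) for cecal transfer against antibiotic. For miR-30b over miR-30d they were −0.014 to 0.20 for cecal transfer against control and −0.087 to 0.11 for antibiotic against control. With a library left out, 4 against 3 libraries cannot give an exact permutation p under 0.0571, so the ratios could not pass there. With a pseudocount of 10 or background subtracted, the lowest adjusted p was again 0.129, from exact permutation p-values at the lowest that groups of 4 can give. No paired analysis was possible because the replicate numbers only follow the order of deposit. miR-30e had the fewest counts of the members, 14 to 169 per library, and its low values in antibiotic replicate 3 and cecal transfer replicate 1 went beyond counting error.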
